A study of Mus musculus with 2 samples.

Results

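The genes described here are 37 genes of red cell formation and heme synthesis, chosen by symbol and grouped by what their products do. They were read on 2 Affymetrix mouse 430A2.0 GeneChips, 1 for splenocytes of GPI-immunized mice and 1 for splenocytes of control-immunized mice. Probe sets (groups of short oligonucleotides that yield 1 signal for a transcript) were kept where the platform annotation gave exactly 1 gene symbol. This left 32 of the 37 genes, with 47 probe sets, among 12393 genes on the array. All mice were male DBA/1 and were obtained at an age of 6 to 8 weeks. One group had received 300 μg of human GPI fused to glutathione S-transferase (GPI-GST) in complete Freund's adjuvant and developed arthritis, while the controls had received 100 μg of GST in the same adjuvant. Spleens of 3 mice per group were taken on day 10, and whether their RNA was pooled is not stated. With 1 array per group there were no replicates, no test was possible, and each ratio compares these 2 arrays.

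Red cells form from progenitors that pass through dividing erythroblasts, lose the nucleus and mature as reticulocytes. In the mouse the adult spleen takes part in this process, mainly in the red pulp, and does so more when demand rises or inflammation limits the marrow. Erythroid transcription factors switch on the genes for globin, for the enzymes of heme synthesis and for the proteins that hold the red cell membrane to its skeleton. Heme synthesis starts and ends in mitochondria, with the intermediate steps in the cytosol, and depends on the import of glycine and iron.

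As deposited, the signal of most of these genes was slightly lower on the GPI-immunized array, and none differed 2-fold. By the brightest probe set of each gene, the 7 listed heme synthesis enzymes and the glycolytic side enzyme Bpgm lay below a ratio of 1. So did Slc4a1, Epb42 and Ank1 of the membrane skeleton, whereas Sptb (1.06) and Add2 (1.93) of that group lay above it. The master regulator Gata1, read by 1 probe set, also lay above 1, while the median log2 ratio of the 6 transcription factors was 0.01. Of the 32 genes, 31 had sufficient signal, that is, a signal on either array of at least 50.2, the 50th percentile of all signals. Among them, 0 were at least 2-fold higher (2.23% of all 6961 genes with sufficient signal were) and 0 were at least 2-fold lower (0.445% of all genes). A ratio below 1 was found for 22 of the 31 genes (71.0%), against 42.4% of all genes. With the hybridization control scaling described below, which raises the ratios of all genes alike, it was found for 12 of the 31. The share of all genes below 1 under it was not counted, and 26 of the 31 lay below the median of all genes. As deposited, the median log2 ratio of GPI-immunized over control signal was -0.16 for the 31 genes, compared with 0.06 over all genes.

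A yardstick for single ratios was taken from genes with several probe sets. The log2 ratio of 1 probe set varied with an SD of 0.26 (2538 pairs), or 0.17 among pairs with signals of at least 500 (446 pairs), and neither value holds any variation between mice. As deposited and by the wider yardstick, which is the one meant below, 10 of the 31 genes (32.3%) lay below 1 by at least 1 SD. Of all genes, 16.5% did. Above 1 by the same margin were 2 genes (6.45%), Gata1 and Add2, against 26.0% of all genes. These counts were made on the deposited scale alone and can change with the scaling. They describe 1 pair of arrays and are not a test of the list.

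How far the signals are scaled to each other decides on which side of 1 many of these ratios fall. Labelled bacterial and phage transcripts, which the manufacturer's procedure adds to the hybridization mix, had a median ratio of 0.873 over 18 probe sets (range 0.759 to 1.16, below 1 in 17). Several of these probe sets read the same transcript (bioB, bioC, bioD or cre), so that they are not independent. What amounts were added is not stated. If the arrays were scaled to these controls, a choice made after the data were examined, the median log2 ratio of all genes moved from 0.06 to 0.26 and that of the erythroid genes from -0.16 to 0.04. Like division by each array's median, this scaling shifts every log2 ratio by the same amount, so that the distance between both medians, -0.21 as deposited, could move only with the genes that passed the signal limit (-0.21 and -0.22). Quantile normalization and loess centring, which do not shift all genes alike, gave distances of -0.19 and -0.18. Below the median of all genes lay 26 of the 31 genes as deposited, and 24 under both quantile normalization and loess centring. By the definition of a median, 50% of all genes lie there. Ratios are therefore given below as deposited, and statements on a group also relative to the median of all genes.

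**Figure D1:**
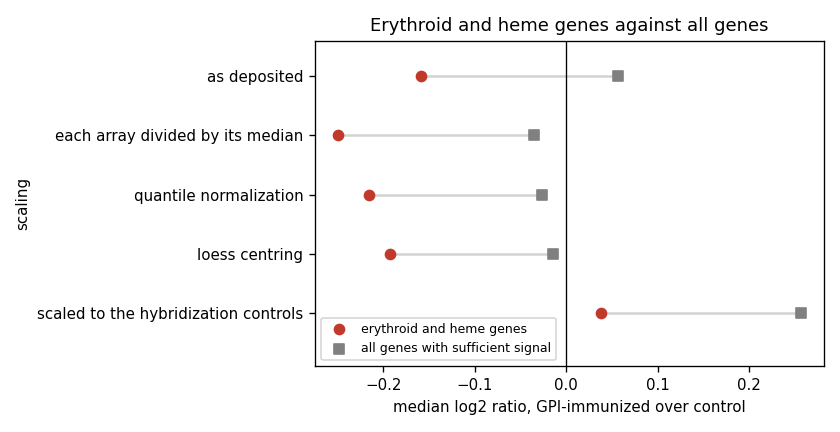
Median log2 ratio of GPI-immunized over control signal (horizontal axis) for the erythroid and heme genes (circles) and for all genes with sufficient signal (squares), under the deposited values and 4 other scalings (vertical axis). The circle lies about 0.2 to the left of the square in each row, and it lies right of 0 with the hybridization controls alone.

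The transcription factors were split around a ratio of 1. GATA1 (Gata1, Entrez Gene 14460), the zinc finger protein required for erythroid and megakaryocyte development, had a control signal of 455.1 and a GPI-immunized signal of 614.5, a ratio of 1.35. All further pairs of signals are given in this order. Its partner FOG1 (Zfpm1) had signals of 825.6 and 941.6, a ratio of 1.14, and its second probe set had 113.3 and 140.7, a ratio of 1.24. The arrays differed by more than the yardstick for Gata1 and by less for the brighter Zfpm1 probe set. The difference for that Zfpm1 probe set lay beyond the narrower SD of 0.17. Klf1, the factor that activates adult β-globin, had signals of 2521.2 and 2587.6, a ratio of 1.03. Nfe2, a subunit of the factor that binds the globin control regions, had signals of 957.8 and 942.7, a ratio of 0.984. For Klf1 and Nfe2, too, the arrays differed by less than the yardstick. Tal1, which forms a DNA-binding complex with GATA1, had signals of 1723.8 and 1620.2, a ratio of 0.940. The bridging protein of that complex, Lmo2, had 2062.8 and 1644.7, a ratio of 0.797, the lowest of the group. The median log2 ratio of the 6 factors was 0.01, against 0.06 over all genes, and it was -0.08 after division by each array's median and was 0.20 with the hybridization controls.

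Promoters of the genes were read from RefSeq (GRCm38.p6), because GATA1 and KLF1 act through short DNA motifs. A window of 250 bases before the gene start was available for 27 of the 37 genes, in 32 windows. The GATA motif was searched as AGATAA or TGATAA and the KLF1 core as CACCC, on both strands, and a match of one can share its end letters with a match of the other. The GATA motif occurred in 15 of the 32 windows (46.9%), compared with 16.6% of all 32851 windows in the table. CACCC occurred in 21 windows (65.6%), compared with 52.0% of all windows, and both motifs together in 13 (40.6%) compared with 7.11%. A match is a description of letters and not of binding. The sequences of both regulators, of the first enzyme of erythroid heme synthesis and of the gene with the lowest ratio are shown from 5′ to 3′ on the gene's strand, with motif matches in capitals. They lie at chrX:7967911-7968160 on the minus strand (Gata1), chr8:84901732-84901981 on the plus strand (Klf1), chrX:150547167-150547416 on the plus strand (Alas2) and chr2:121036878-121037127 on the minus strand (Epb42).
Gata1: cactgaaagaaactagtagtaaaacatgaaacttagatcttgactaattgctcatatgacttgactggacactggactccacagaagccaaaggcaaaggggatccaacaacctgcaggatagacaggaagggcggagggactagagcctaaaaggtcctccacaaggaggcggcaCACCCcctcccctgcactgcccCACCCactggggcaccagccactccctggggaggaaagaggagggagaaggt
Klf1: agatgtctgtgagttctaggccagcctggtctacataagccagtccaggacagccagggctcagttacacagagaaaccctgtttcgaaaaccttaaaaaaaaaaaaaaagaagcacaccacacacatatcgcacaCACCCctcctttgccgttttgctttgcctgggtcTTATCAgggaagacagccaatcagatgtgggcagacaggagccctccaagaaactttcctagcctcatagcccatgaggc
Alas2: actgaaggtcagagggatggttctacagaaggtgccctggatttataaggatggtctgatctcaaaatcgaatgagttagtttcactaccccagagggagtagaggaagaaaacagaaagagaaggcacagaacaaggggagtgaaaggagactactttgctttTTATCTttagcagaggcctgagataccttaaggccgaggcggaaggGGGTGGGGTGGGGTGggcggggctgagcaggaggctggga
Epb42: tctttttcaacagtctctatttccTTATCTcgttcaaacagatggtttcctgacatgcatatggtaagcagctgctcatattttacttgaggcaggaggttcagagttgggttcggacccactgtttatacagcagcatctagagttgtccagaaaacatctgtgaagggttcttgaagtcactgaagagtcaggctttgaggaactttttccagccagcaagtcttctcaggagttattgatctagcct
The Gata1 window held 0 GATA motifs and 2 CACCC matches, and the Klf1 window held 1 of each. In the Alas2 window there was 1 GATA motif with 3 CACCC matches, all on the opposite strand. The Epb42 window had 1 GATA motif and 0 CACCC matches.

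The erythropoietin receptor (Epor), through which the hormone keeps erythroid progenitors alive, had signals of 540.3 and 506.2, a ratio of 0.937. Genes of its signalling pathway lay on both sides of 1. Of 6 with sufficient signal, 0 were 2-fold higher and 0 were 2-fold lower, with a median log2 ratio of 0.00, and 3 of the 6 lay below 1 under each of the 5 scalings. When all probe sets of a gene were averaged, 1 of the 6 lay below 1 and the median was 0.36. That average took in a Bcl2l1 probe set with signals of 1.0 and 7.8. Both are under the highest bacterial control signal of 14.1, so that its ratio holds no information. The feedback inhibitor Cish had a ratio of 1.48 (signals of 50.7 and 75.2) and the survival factor Bcl2l1, which encodes BCL-XL, a ratio of 0.639 (313.6 and 200.4). Stat5a, a transcription factor of the pathway, had a ratio of 1.24. The receptor's kinase Jak2 had a ratio of 0.809 (566.3 and 458.1), and its second probe set a ratio of 1.16.

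All 7 measured heme synthesis enzymes of the main list, which does not hold the isoform Alas1 (ratio 1.55), had lower signals on the GPI-immunized array. All 7 lay below the median of all genes under each of the 5 scalings. Their median log2 ratio was -0.19 as deposited and 0.01 with the hybridization controls, which left 3 of the 7 below 1. Relative to all genes it was -0.25 in both cases. The spread within the group was narrow, with an SD of 0.11 on the log2 scale.

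Alas2 (Entrez Gene 11656), the erythroid enzyme that joins glycine and succinyl-CoA in the rate-limiting step, had signals of 3508.2 and 2792.4, a ratio of 0.796. Alad, which forms the pyrrole ring, had signals of 4298.7 and 3851.2, a ratio of 0.896. Uros, which closes the tetrapyrrole, had 972.8 and 852.6, a ratio of 0.876. The differences for Alad and Uros were within the yardstick, although that for Uros lay beyond the narrower SD of 0.17. Urod, which acts next in the cytosol, had signals of 1384.7 and 1197.1, a ratio of 0.865. Cpox had signals of 471.5 and 435.8, a ratio of 0.924, and Ppox had 748.0 and 666.0, a ratio of 0.890. Cpox and Ppox carry the oxidation steps in mitochondria, and their second probe sets gave ratios of 0.973 and 0.847. Ferrochelatase (Fech, Entrez Gene 14151), which inserts iron into protoporphyrin, had the lowest ratio of the enzymes. Its 3 probe sets with sufficient signal had 3605.6 and 2672.8 (ratio 0.741), 2367.3 and 1850.3 (0.782), and 2382.9 and 1746.7 (0.733). The fourth Fech probe set was at background, with signals of 3.2 and 9.9. Background was judged from bacterial probe sets with no mouse target, which reached at most 14.1.

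Of the mitochondrial carriers, mitoferrin-1 (Slc25a37), which imports iron for heme, had 4040.1 and 2899.4, a ratio of 0.718. The glycine carrier Slc25a38 had 473.5 and 475.8, a ratio of 1.00. Only the iron carrier differed between the arrays by more than the yardstick.

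Other genes of the heme pathway did not share the ratios of the enzymes in the main list. Of 7 with sufficient signal, 5 lay above 1 and 2 below, and 0 passed 2-fold in either direction, with a median log2 ratio of 0.05 (-0.04 after division by the median, -0.01 with quantile normalization or loess centring and 0.25 with the hybridization controls). The housekeeping isoform Alas1 had signals of 193.8 and 301.1, a ratio of 1.55, opposite to Alas2. Heme oxygenase-1 (Hmox1), which breaks heme down and is also a marker of red pulp macrophages, had 387.4 and 671.5, a ratio of 1.73. Biliverdin reductase A (Blvra), which acts after it, had 344.1 and 510.2, a ratio of 1.48. The mitochondrial transporter Abcb10, which binds mitoferrin-1, had 1241.2 and 1046.3, a ratio of 0.843, with a further probe set at 1.07.

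**Figure D2:**
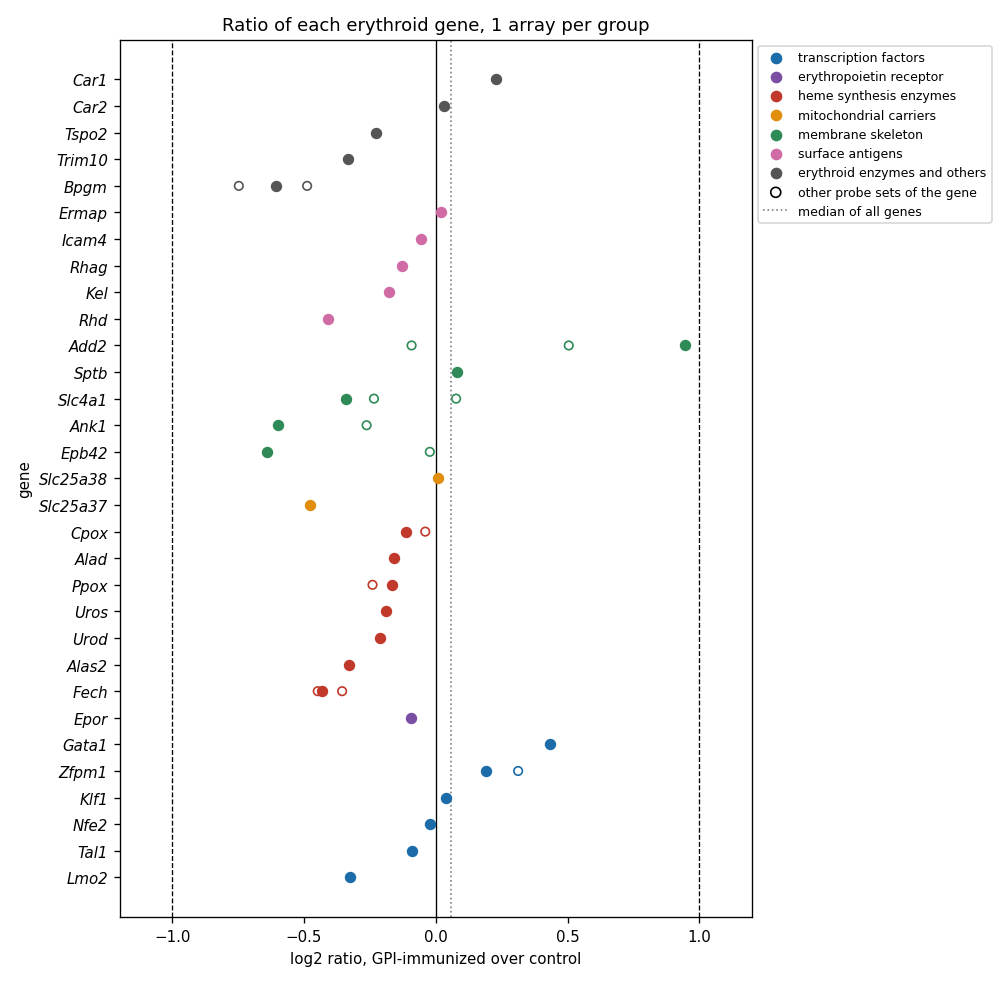
Log2 ratio of GPI-immunized over control signal (horizontal axis) for each of the 31 genes with sufficient signal (vertical axis), ordered and coloured by role, from 1 array per group. Filled points are the probe set that stands for the gene (highest on average over both arrays) and open points the gene's other probe sets with sufficient signal. All 7 heme synthesis enzymes lie left of 0, and Add2 spans from -0.09 to 0.95.

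The membrane skeleton held both the lowest and the highest ratio of the 31 genes. Epb42 (Entrez Gene 13828), whose product links the anion exchanger to ankyrin, had signals of 887.8 and 568.9, a ratio of 0.641. Its second probe set had 372.3 and 366.5, a ratio of 0.984. Erythroid ankyrin (Ank1, Entrez Gene 11733) had signals of 1196.3 and 789.3, a ratio of 0.660, and a further probe set had 282.5 and 235.5, a ratio of 0.834. For both genes the size of the difference therefore depended on the probe set. As deposited these probe sets all lay below 1, the second of Epb42 by less than the yardstick. The remaining Ank1 probe set stayed under the signal limit, with 23.8 and 21.2. The anion exchanger band 3 (Slc4a1) had signals of 5954.8 and 4701.6, a ratio of 0.790, then 4467.5 and 3796.9 (0.850) and, in a dim probe set, 78.4 and 82.7 (1.05). β-spectrin (Sptb), the rod that forms the network with α-spectrin, had 458.2 and 484.3, a ratio of 1.06. β-adducin (Add2), which caps actin at the junctions of the network, had signals of 61.3 and 118.2, a ratio of 1.93. Its other probe sets had 67.1 and 95.2 (1.42) and 79.4 and 74.5 (0.938), so that the direction for Add2 was not settled. The median log2 ratio of these 5 genes was -0.34 as deposited, -0.14 with the hybridization controls, and 0.40 below the median of all genes in both. With all probe sets of a gene averaged it was -0.17, or -0.24 relative to all genes. As deposited, 3 of the 5 genes lay below the median of all genes and 2 above. Epb41, which joins spectrin to actin, had no probe set with a single symbol.

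Further genes of the red cell membrane all lay below 1. All 8 with sufficient signal had ratios from 0.519 to 0.987, with a median log2 ratio of -0.22, and 0 passed the 2-fold limit. After division by the median, quantile normalization or loess centring 1 of them, Tmod1, passed it, and with the hybridization controls 5 of the 8 were below 1. Tropomodulin 1 (Tmod1), which caps the short actin filaments of the skeleton, had the lowest ratio, from signals of 412.6 and 214.2. Dematin (Dmtn), an actin-bundling protein, had signals of 956.4 and 689.6, a ratio of 0.721. Mpp1 (p55) had a ratio of 0.821 and glycophorin C (Gypc), its partner in the membrane, a ratio of 0.848.

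The surface antigens differed little except for Rhd. The Rh protein gene Rhd had signals of 2745.5 and 2067.9, a ratio of 0.753. Rhag, its associated ammonium channel, had 1993.7 and 1824.1, a ratio of 0.915. The Kell blood group gene Kel had 1580.3 and 1395.6, a ratio of 0.883. For Rhag and Kel the arrays differed by less than the yardstick, although for Kel by more than the narrower SD of 0.17. Icam4, the adhesion molecule of the Landsteiner-Wiener blood group, had signals of 533.1 and 512.7, a ratio of 0.962, and the Scianna blood group gene Ermap had 3049.8 and 3092.5, a ratio of 1.01. All 5 lay below the median of all genes under each of the 5 scalings, although with the hybridization controls only 1 was below 1.

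Among the remaining enzymes and proteins, bisphosphoglycerate mutase (Bpgm, Entrez Gene 12183), which makes the 2,3-bisphosphoglycerate that lowers the oxygen affinity of hemoglobin, had the lowest ratio. Its 3 probe sets had signals of 987.6 and 648.2 (ratio 0.656), 1004.8 and 598.5 (0.596), and 652.3 and 465.0 (0.713). They did not differ in direction, and each lay beyond the yardstick. Carbonic anhydrase 1 (Car1) had signals of 3138.5 and 3681.9, a ratio of 1.17, and carbonic anhydrase 2 (Car2) had 6790.0 and 6930.7, a ratio of 1.02. Trim10, a protein needed for terminal erythroid differentiation, had 1660.2 and 1319.2, a ratio of 0.795. Tspo2, a cholesterol-binding membrane protein of erythroblasts, had 723.3 and 618.3, a ratio of 0.855.

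Globin could not be read gene by gene. The single probe set named for Hba-a1 alone read 11.6 on the control array and 2.1 on the other. Neither reached the highest bacterial control, so that their ratio holds no information. Hbb-b1, Hbb-bt, Hbb-bs and the α-globin chaperone Ahsp had no probe set with a single symbol. The adult globin genes are near-identical copies, and 4 bright probe sets carry several of their symbols. The 3 that match α-globin genes jointly had signals of 5705.5 and 5133.9, 6677.4 and 6946.0, and 6914.8 and 6835.2, with ratios of 0.900, 1.04 and 0.988. The fourth, which matches the β-globin genes jointly, had 5781.0 and 6737.8, a ratio of 1.17. These shared probe sets were bright on both arrays, lay on either side of 1, and cannot be assigned to a gene. Among globin genes outside the list, Hbb-b2 had 1290.6 and 832.4, a ratio of 0.645, in a probe set of the kind that can cross-hybridize, and 2.7 and 18.5 in the other. The embryonic globins Hba-x, Hbb-y and Hbb-bh1 had no signal above 9.0 on either array.

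**Figure D3:**
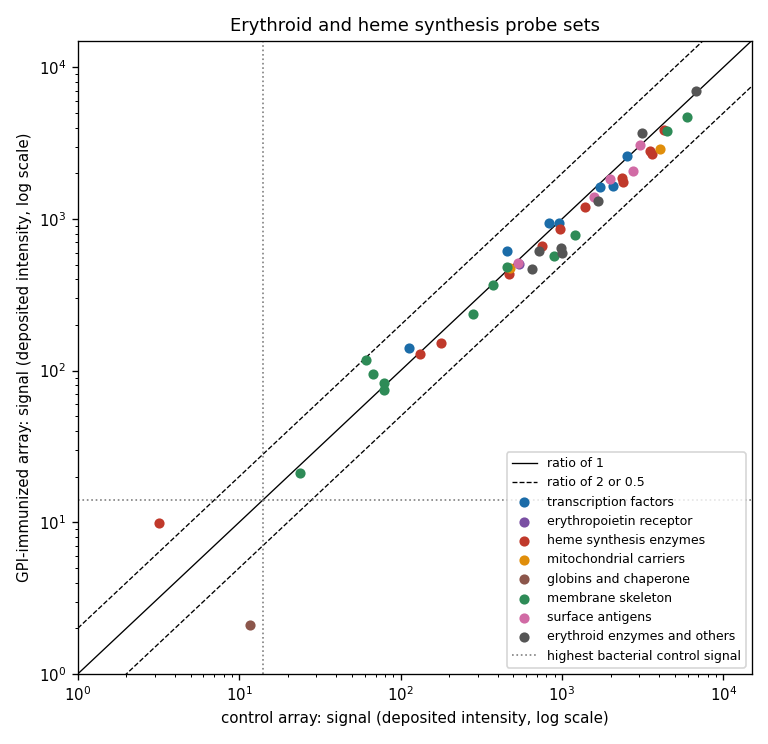
GPI-immunized signal (vertical axis) plotted over the control signal (horizontal axis), both as deposited and on log scales, for the 47 probe sets of the 32 erythroid and heme genes, coloured by role. Apart from a pair of background-level probe sets of Fech and Hba-a1 (inside the dotted lines at 14.1), all points lie between the dashed lines of ratio 0.5 and 2.

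Genes of red cell maturation and antioxidant defence had a lower median than the heme enzymes. Of 9 with sufficient signal, 8 lay below 1 (6 with the hybridization controls), and 0 passed 2-fold. Their median log2 ratio was -0.39 as deposited, -0.20 with the hybridization controls, and 0.45 below the median of all genes in both. The ubiquitin-conjugating enzyme Ube2l6 had signals of 214.4 and 150.9, a ratio of 0.704. Exportin 7 (Xpo7), which takes part in nuclear maturation of erythroblasts, had 2243.2 and 1614.8, a ratio of 0.720. Hagh, a glyoxalase, had a ratio of 0.728. Only Pklr, the red cell and liver pyruvate kinase, lay above 1, at 1.29. Of 11 further erythroid transcription factors, 6 were below 1 and 5 above (8 below under 3 scalings, 4 of 10 with the hybridization controls), from the late factor Hemgn (3547.6 and 2699.5, ratio 0.761) to Myb, which keeps progenitors dividing (608.0 and 757.5, ratio 1.25).

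Genes of iron uptake lay on the other side. Of 6 with sufficient signal, 5 had ratios above 1 (4 after division by the median, quantile normalization or loess centring and 6 with the hybridization controls), with a median log2 ratio of 0.20, and 0 passed 2-fold. Transferrin receptor 2 (Tfr2), which associates with the erythropoietin receptor, had signals of 300.7 and 396.3, a ratio of 1.32. Transferrin receptor 1 (Tfrc), the main iron entry of erythroblasts and also of other dividing cells, had 3105.0 and 3593.5, a ratio of 1.16. The other Tfrc probe sets gave larger ratios, 1.94 from 485.9 and 943.7 and 2.80 from 82.1 and 229.7. The erythroid ferrireductase Steap3 had a ratio of 1.23 from signals of 52.9 and 65.0, and the iron transporter Slc11a2 a ratio of 1.14. Genes of proliferating cells centred on the median of all genes, with ratios from 0.865 (Ccnb2) to 1.14 (Plk1) over 13 genes.

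Markers of other spleen cells moved with the comparison, and in whole splenocytes fewer cells of a type cannot be told apart from less RNA per cell. All 13 neutrophil markers with sufficient signal had ratios above 1, and 6 were at least 2-fold higher (5 after division by the median, quantile normalization or loess centring or with a floor at the 50th percentile, and 9 with the hybridization controls), with summed signals of 34974.3 and 50871.1. One of the 6, the chemokine receptor gene Cxcr2, reached the signal limit on the GPI-immunized array alone (23.5 and 76.6). The T cell markers had summed signals of 1936.1 and 1430.1, with 9 of 10 below 1 (8 with the hybridization controls, 10 under the 3 other scalings), and the B cell markers 17461.8 and 13240.9, with all 10 below 1 (8 with the hybridization controls). Their median log2 ratios, -0.47 for T cells and also -0.47 for B cells, were lower than the -0.16 of the erythroid genes. The part of these shifts in the erythroid ratios was not tested.

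Gata1, Zfpm1, Nfe2, Tal1 and Lmo2 are used by megakaryocytes too, and Gata1 also by mast cells. Of 8 measured megakaryocyte and platelet markers, 5 had sufficient signal (4 after division by the median, quantile normalization or loess centring), with summed signals of 417.0 and 564.4. They include the platelet chemokine Ppbp at a ratio of 1.42, the integrin Itga2b at 1.59 and Gp5, which reached the limit on the GPI-immunized array alone (28.7 and 51.7). Under the limit on both arrays, Vwf had 41.5 and 27.7, a ratio of 0.667. Of 5 mast cell and basophil markers 3 lay above 1 (4 of 4 with the hybridization controls). These were the histidine decarboxylase gene Hdc at 2.72, Mcpt8 at 1.44 and Cpa3 at 1.31. Kit at 0.891 and Gata2 at 0.868 lay below 1. In red pulp macrophages, which clear old red cells, 6 of 7 markers lay above 1 (4 after division by the median, quantile normalization or loess centring and 7 with the hybridization controls), the highest being Cd5l at 2.84. Of 7 endothelial markers 1, Pecam1, had sufficient signal. Whether these cells contribute to the ratio of 1.35 for Gata1 was not tested.

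**Figure D4:**
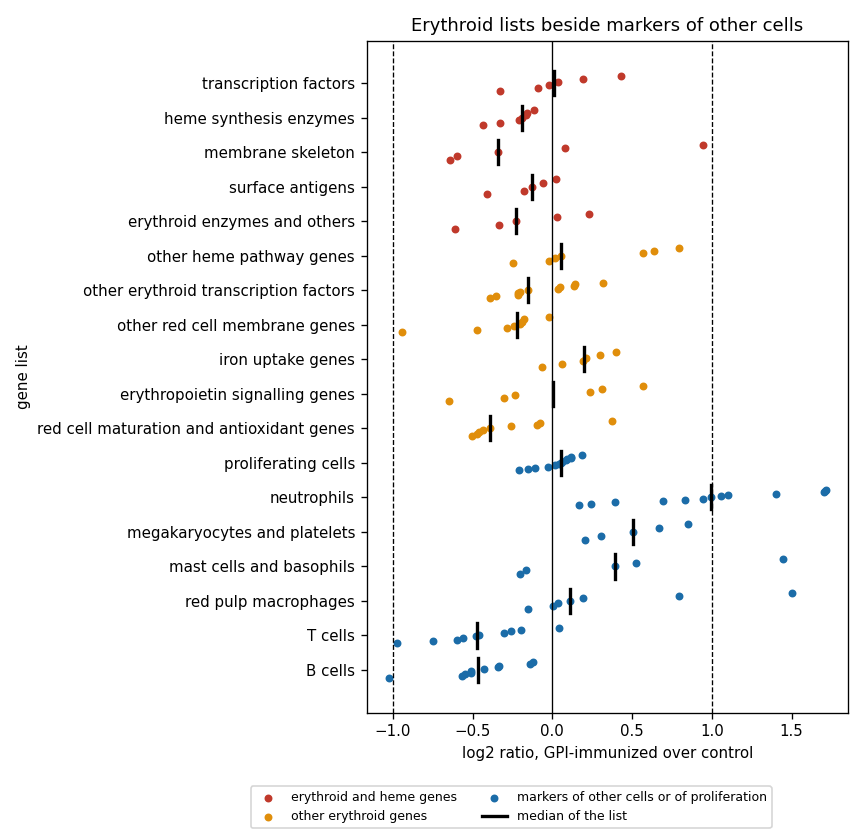
Log2 ratio of GPI-immunized over control signal (horizontal axis) for genes with sufficient signal in each list (vertical axis), 1 point per gene, with a bar at the median of the list and dashed lines at 2-fold. The medians of the erythroid lists drawn lie between those of the lymphocyte markers (-0.47) and of the neutrophil markers (1.00), and lists with fewer than 5 genes of sufficient signal are not drawn.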

How the data were processed

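Total RNA of splenocytes was hybridized to mouse 430A2.0 GeneChips, 1 per group. The authors deposited 1 intensity per probe set and array on a linear scale, made by gene expression software. How probes were summarized, arrays scaled and transcripts called detected was not given in the sources used. The labels and the methods also describe the labelling differently. The median intensity was 48.65 (control) and 51.8 (GPI-immunized) over all transcripts (22626 probe sets besides 64 control probe sets). The number of arrays limits the precision.

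Probe sets with exactly 1 symbol in the platform annotation were used (20380). The 691 with several symbols and the 1555 with none were not assigned to a gene. All 32 measured symbols matched RefSeq (GRCm38.p6) by gene ID. Where a gene had several, the one of highest mean log2 signal stood for it, and 3 signals of 0 were set to 0.1. Genes counted as higher or lower at a ratio of at least 2 or at most 0.5. The genes and lists were chosen with earlier results of these data known, and every gene of the main list is named, with genes from among the 4 furthest from a ratio of 1 in each other list. Kit, which lies outside the 4 furthest of its list, was named as well. Pklr, Vwf and the embryonic globins were named after their values were seen. Alternatives were other scalings, floors, filters, probe set choices and a 3-fold limit. The steps were tested on simulated data with planted changes larger than the 2-fold limit. That run does not bear on smaller differences, such as those of the main list. The work used Python 3.11.15 (matplotlib 3.10.9, statsmodels 0.14.6, scipy 1.17.1, pandas 2.3.3, numpy 2.4.6).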

Additional observations from a re-analysis of the deposited data

Results flagged for a closer look

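Transferrin receptor 1 is also read by 3 control probe sets of the array, which were left out of the comparisons above, and their signals were higher on the GPI-immunized array. The probe set at the 3′ end had signals of 324.2 and 672.9 (ratio 2.08), the middle one 67.2 and 155.1 (2.31) and the one at the 5′ end 50.6 and 107.6 (2.13). Of the ordinary probe sets for the same gene, the one with the highest signal had a ratio of 1.16 and the others had 1.94 and 2.80. The cause of the differences between probe sets was not tested.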

How the results depend on the processing

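None of the 31 genes of the main list passed the limit under division by the median, quantile normalization, loess centring, the 3 floors, averaging of probe sets or the 3-fold limit. The same held for the 30 genes left by the 75th percentile filter. It also held for the 27 genes left when all probe sets with names ending in _s_at, _x_at or _a_at were left out. Without a filter 1 gene was lower, the background-level Hba-a1. With the hybridization controls, added after the data were examined, 1 gene was higher, Add2, and the number of genes below 1 fell from 22 to 12 of 31. As deposited and with these controls alike, 26 of the 31 lay below the median of all genes. Over all genes the scaling to these controls moved the counts of higher and lower genes from 155 and 31 to 262 and 10. The medians of the 31 genes, the transcription factors, the heme enzymes and the membrane skeleton moved by less than the probe set SD under every alternative run for them. Of the other lists, 4 medians moved further. Averaging of probe sets moved the erythropoietin signalling genes from 0.00 to 0.36 and Hbb-b2, the single other globin gene, from -0.63 to 1.07. Those averages took in dim probe sets of Bcl2l1 (signals of 1.0 and 7.8) and Hbb-b2 (2.7 and 18.5). The hybridization controls moved the other erythroid transcription factors from -0.15 to 0.14 and the mast cell markers from 0.39 to 0.66. Of 336 values for single genes of the main list under these alternatives, 332 moved by less than the probe set SD. The other 4 belong to Fech (log2 ratio 0.10 when averaged with its background-level probe set), Epb42 (-0.33 averaged) and Add2 (0.45 averaged and -0.09 without the probe sets of those name endings). Such counts are a weak check, because many values could hardly move. A filter leaves the ratio of a gene unchanged, and averaging cannot move the 23 measured genes with 1 probe set. Scaling to the hybridization controls moved the median of all genes by 0.20, less than the SD of 0.26. That SD also exceeds the size of the median of -0.16, so a median could change sign and still count as within it. The globin group had no gene with sufficient signal and hence no median. No paired analysis was possible because each group has 1 array.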
